A study of Mus with 3 samples.

Results

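CD4 T cells without Foxp3 that carried UMIs of the TNF ligand genes Tnfsf8 and Tnfsf11 were examined in MC38 tumors of mice with 3 levels of the retinoic acid receptor RARα. A UMI is a tag that counts 1 captured RNA molecule. The members were chosen by UMI counts: a barcode needed 500 or more gene UMIs, a clonotype in the deposited table of T cell receptor (TCR) contigs, 1 or more Cd4 UMIs, no Cd8a, Cd8b1 or Foxp3 UMI, and 2 or more UMIs of Tnfsf8 and Tnfsf11 together. This found 121 members among 3702 barcodes with a clonotype and 5600 barcodes in all. Antibody hashtags assigned 32 members to WT, 58 to RARα-KO and 25 to RARα-TG, and 6 had no clear hashtag. The comparison group, called the other cells below, is the remaining 232 CD4 T cells with a genotype and without Cd8a, Cd8b1 and Foxp3 UMIs, 56 of them WT, 99 RARα-KO and 77 RARα-TG.

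MC38 is a mouse colon carcinoma line, grown here under the skin and taken on day 16. RARα-KO mice carry floxed Rara alleles and a Cre driven by the distal Lck promoter, which acts in mature T cells, and a Rara transcript without the deleted exon can still be made. RARα-TG mice express Rara under the CD2 promoter, which is active in lymphocytes. The study used C57BL/6 and dLck-Cre mice as WT controls. It names young adult animals of both sexes for most experiments, and also says that it later turned mainly to male mice. The sources used here do not say which WT strain, or how many mice of each genotype, these cells came from. The cells of all 3 genotypes were pooled into 1 library, so each genotype is 1 sample without a replicate and genotypes were compared without a test. Below, a tumor means all cells with the hashtag of 1 genotype, whether they came from 1 mouse or more. Some labels name the spleen and activated naive CD8 T cells as the source; the tumor protocol was followed, and the members carry Cd4 by their rule.

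CD4 helper T cells recognize peptides on MHC class II molecules and act through cytokines and surface ligands. Tnfsf8 (CD30 ligand) binds Tnfrsf8 (CD30), a receptor of activated lymphocytes. Tnfsf11 (RANKL) binds Tnfrsf11a (RANK) on dendritic cells, macrophages and osteoclast precursors, and Tnfrsf11b (osteoprotegerin) is its soluble decoy. T cells make both ligands after their antigen receptor is engaged. In the GRCm38.p6 annotation of RefSeq, Tnfsf8 lies on chromosome 4 (63831202 to 63861508) and Tnfsf11 on chromosome 14 (78277446 to 78308043).

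The median number of gene UMIs per member was 4514 (WT), 5274.5 (RARα-KO) and 5651 (RARα-TG), and per other cell 3422.5, 4393 and 3610. The rule asks for UMIs and so favors deep cells. Summed over members, 178430, 353456 and 162955 UMIs were counted. Levels below are CPM, the UMIs of a gene per 1000000 gene UMIs of a summed population. Where 3 values follow each other they belong to the WT, RARα-KO and RARα-TG tumors in this order, and all intervals are 95% intervals that cover counting error only.

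Most members held Tnfsf11, and many held both ligands. Of the 115 members with a genotype, 59 had UMIs of both genes, 42 of Tnfsf11 alone and 14 of Tnfsf8 alone. Members with both were 62.5% of the 32 WT cells (Clopper-Pearson interval 43.7% to 78.9%), 46.6% of the 58 RARα-KO cells (33.3% to 60.1%) and 12 of 25 RARα-TG cells (27.8% to 68.7%). The intervals overlap. The median member held 7, 4 and 4 ligand UMIs, with a highest value of 41, 48 and 24. Tnfsf11 stood at 1317, 812 and 638 CPM in members and Tnfsf8 at 454, 319.7 and 368 CPM in members. These levels follow from the rule and are given as a description.

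**Figure D1:**
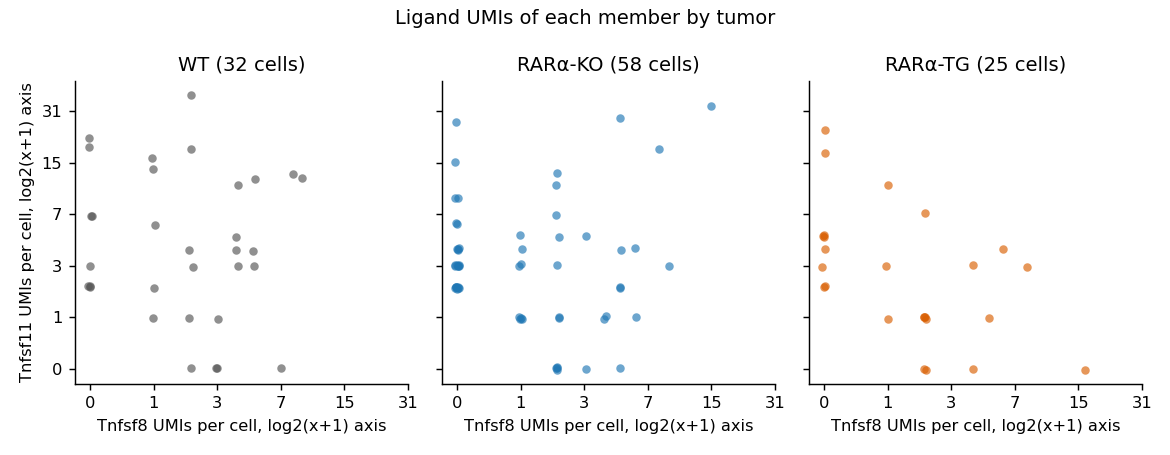
Tnfsf8 UMIs (horizontal axis) and Tnfsf11 UMIs (vertical axis) of each member, 1 point per cell with a small jitter, both on a log2(x+1) scale, for the WT, RARα-KO and RARα-TG tumors. Cells with both ligands (20, 27 and 12) fill the middle of each panel, and the column at 0 on the left holds the 8, 25 and 9 cells with Tnfsf11 alone.

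The cells on either side of the limit of the rule are given as a description. The 26 members with exactly 2 ligand UMIs had a median of 4508 gene UMIs, and the 61 cells just outside, with 1 ligand UMI, had 4409. Ccr7, the receptor for lymph node chemokines, stood at 156 CPM in the 171 cells without ligand UMIs, 374 CPM just outside, 798 CPM just inside and 1025 CPM in the 89 members with 3 or more. Gzmb, which encodes granzyme B, went the other way, from 1777 through 1021 and 387 to 169 CPM. Bhlhe40, a transcription factor of activated T cells, went from 594 through 891 and 1124 to 1413 CPM. Ccl5 fell over the same groups, from 1557 through 439 and 372 to 254 CPM. The other genes looked at had no even course. Tnfrsf25 stood at 37.6, 71.6, 38.0 and 124 CPM, and Bace2 at 30.6, 68.5, 53.2 and 72.8 CPM. Serpinb1a stood at 320, 483, 311 and 526 CPM, Nfkbib at 154, 224, 205 and 456 CPM, and Klrg1 at 244, 18.7, 76.0 and 16.0 CPM.

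Outside the members, the ligands had their UMIs in different cells. The 115 members held 46.4% of the Tnfsf8 UMIs and 40.6% of the Tnfsf11 UMIs of all cells with a genotype. Members were chosen for these UMIs, so both shares follow from the rule and are a description. CD8 T cells held 14.1% of Tnfsf8 and 31.6% of Tnfsf11, and there Tnfsf11 was at 55.5, 21.6 and 2.77 CPM. In Foxp3+ CD4 T cells Tnfsf8 was at 5.197, 0 and 3.98 CPM. Of 1450 barcodes without a TCR, 41 had 2 or more ligand UMIs (2.83%, interval 2.04% to 3.82%, median 5966 gene UMIs), and single ones reached 10 Tnfsf8 and 20 Tnfsf11 UMIs. Whether these were T cells without a clonotype was not tested. Of 334 Foxp3+ CD4 T cells 6 had 2 or more (1.80%, 0.662% to 3.87%, median 4369). T cells without Cd4 or CD8 UMIs held 16.8% of the Tnfsf8 UMIs, and the rule leaves those cells out.

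The receptors of both ligands were measured in other populations. Tnfrsf8 had 0 UMIs in the 115 members, which allows up to 5.31 CPM by the Poisson interval, against 8.10, 3.96 and 17.4 CPM in the other cells. Foxp3+ CD4 T cells had 19.1, 36.4 and 55.8 CPM and held 37.7% of its UMIs. Tnfrsf11a also had 0 UMIs in members, and 90.1% of its UMIs lay in barcodes without a TCR. Myeloid, tumor and stromal cells fall there, and so do T cells without a clonotype. Of these barcodes 130 of 487, 307 of 709 and 106 of 254 had 5 or more UMIs of the 10 T cell markers named below. Tnfrsf11b had 2 UMIs in all, both in barcodes without a TCR of the RARα-KO tumor.

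The markers were those of αβ T cells. The 10 T cell markers Cd3e, Cd3d, Cd3g, Trac, Trbc1, Trbc2, Cd28, Cd5, Lck and Zbtb7b summed to 4885 to 6434 CPM in members and 4702 to 7093 CPM in the other cells. The 6 markers of γδ and invariant T cells, the 4 B cell markers and the 6 markers of MC38 and stromal cells had 0 UMIs in members of all 3 tumors. The 4 markers of NK and innate lymphoid cells had 5, 1 and 1 UMIs and the 6 of dendritic cells 11, 9 and 1 UMIs in members. No member clonotype joined TRAV11 to TRAJ18, the receptor of invariant NKT cells. The 10 myeloid markers summed to 16.98 to 39.2 CPM in members, with at most 5 UMIs in a cell. In the other cells of the WT tumor they reached 676 CPM, of which 129 of 167 UMIs lay in 1 cell. The 3 further markers that came with the rule are a description. Tnfrsf25, the receptor of TL1A, was at 89.7, 93.4 and 159.6 CPM in members against 24.3, 39.6 and 83.4 CPM in the other cells. Bace2, a membrane protease, was at 72.9, 87.7 and 24.5 CPM in members against 28.3, 67.3 and 10.4 CPM in the other cells, and Serpinb1a, a protease inhibitor, at 476, 662 and 110.5 CPM in members against 154, 616 and 125 CPM in the other cells. Of the 85 Serpinb1a UMIs in WT members 54 lay in 1 cell, and without the top cell of each population WT stood at 178 CPM in members and 128 CPM in the other cells, and RARα-KO at 531 and 536 CPM. Serpinb1a was lower in members of RARα-TG, and Tnfrsf25 and Bace2 were above the other cells in each tumor. For Bace2 in RARα-TG this rests on few UMIs, 3 in members with a Tnfsf8 UMI and 1 in members without one.

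Across 5675 genes with more than 0.1 UMIs per cell, 65 differed between members and the other cells at an adjusted p under 0.05, which is 1.15% of the genes tested. Of these, 27 were higher in members (0.476%) and 38 lower (0.67%). The test was edgeR's quasi-likelihood test on 6 sums, members and other cells of each of 3 tumors, with the tumor as a term and the gate and TCR genes left out. Without the RARα-TG tumor all 65 genes kept their direction and 63 an unadjusted p under 0.05, but 3 genes were higher (Ccr7, Plscr1 and Marcksl1) and 4 lower (Gzmb, Cebpb, Gzmk and Spp1) past the threshold. Without the tumor as a term no gene was called in either direction and 547 genes had an unadjusted p under 0.05, and DESeq2 called 10 higher and 15 lower.

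Homing and resting genes split. Ccr7 was at 1345, 393 and 1859 CPM in members against 174, 113 and 459 CPM in the other cells (log2 fold change 2.27 ± 0.21 SE, edgeR adjusted p = 0.000505). The sum was higher in members of each tumor, and its UMIs lay in 17, 16 and 9 members, while 73 of 115 members had none. Klf2, a factor of resting T cells that drives S1pr1, fell (28.0, 36.8 and 18.4 CPM in members against 170.0, 79.2 and 167 CPM in the other cells, log2 fold change -2.001 ± 0.37 SE, edgeR adjusted p = 0.0281). S1pr1, the receptor by which T cells leave tissue, fell with it (-1.82 ± 0.37 SE, adjusted p = 0.0379 by edgeR). Of 12 tested genes of the naive and resting list, 1 rose, 2 fell and 9 were not called, with a median log2 fold change of -0.43 beside 0.0057 over all genes. Tcf7, picked after its values were seen, was at 95.3, 84.9 and 73.6 CPM in members against 101, 79.2 and 139 CPM in the other cells and was not called. Itgb7, an integrin chain of gut homing, was lower (-1.34 ± 0.28 SE).

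**Figure D2:**
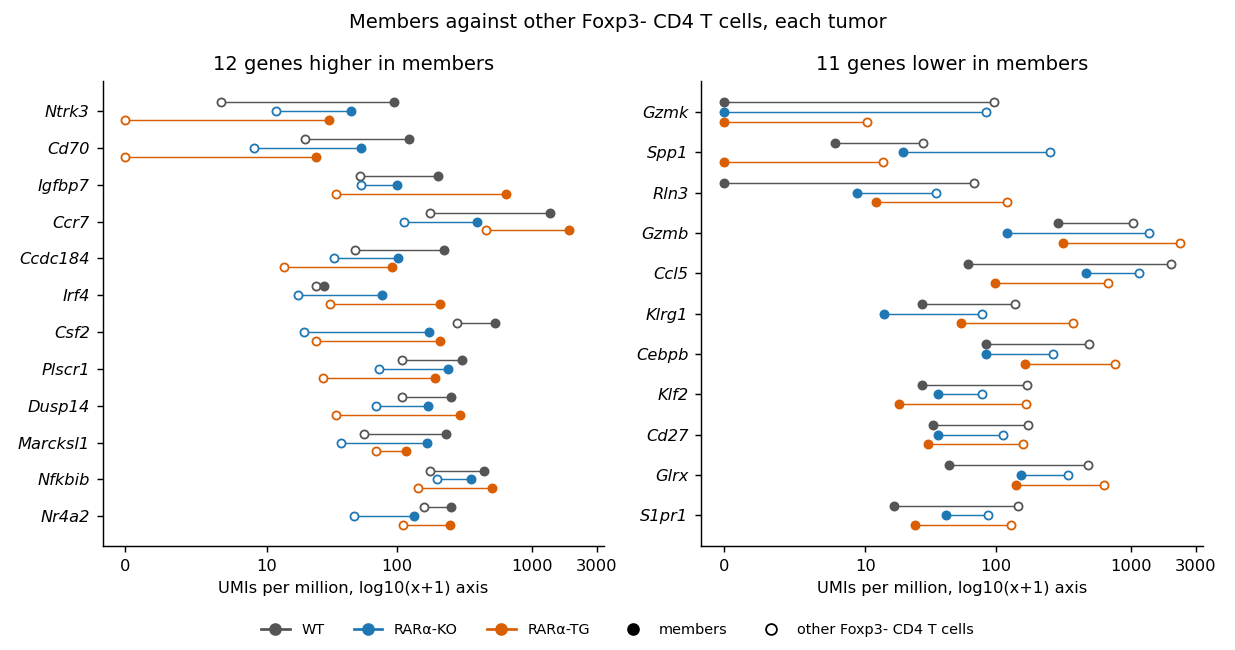
CPM (log10(x+1) axis) of the 12 genes with the largest fold change in each direction among those called and moved the same way in all 3 tumors, less 1 gene not reported here; filled points are members, open points the other Foxp3- CD4 T cells, and lines join both populations of 1 tumor (grey WT, blue RARα-KO, orange RARα-TG). Every line runs to the right for Ccr7 and to the left for Gzmb, and Irf4 in WT has the shortest line on this scale, from 24.3 to 28.0 CPM.

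Genes of antigen receptor and NF-κB signaling were among those that rose. Nfkbib, an inhibitor of NF-κB, was at 437, 351 and 503 CPM in members against 174, 196 and 142 CPM in the other cells (log2 fold change 1.33 ± 0.22 SE, edgeR adjusted p = 0.0208). Nfkbia, the main feedback inhibitor of NF-κB, rose by less (0.75 ± 0.14 SE, adjusted p = 0.0293 by edgeR). Of 21 tested genes of the NF-κB and TRAF list, 2 rose, none fell and 19 were not called, with a median of 0.30 beside 0.0057 over all genes. Bhlhe40 was at 1508, 1296 and 1332 CPM in members against 700.4, 790.1 and 490.0 CPM in the other cells (log2 fold change 1.11 ± 0.16 SE, edgeR adjusted p = 0.00818), and 109 of 115 members had a UMI of it. The nuclear receptors Nr4a2 and Nr4a3, induced by the antigen receptor, rose (1.12 ± 0.23 and 1.07 ± 0.23 SE), and both calls were lost under 6 and 8 of 14 alternatives. Irf4, a factor induced by antigen receptor signals, was called as higher (28.0, 76.4 and 209 CPM in members against 24.3, 17.8 and 31.3 CPM in the other cells), but 24 of its 34 UMIs in RARα-TG members were in 1 cell. Icos, a costimulatory receptor, fell (751, 857 and 687 CPM in members against 1356, 1279 and 1567 CPM in the other cells, log2 fold change -0.82 ± 0.15 SE, edgeR adjusted p = 0.0242). Of 17 tested genes of the antigen receptor list, 3 rose, 1 fell and 13 were not called.

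Of the TNF ligands outside the rule, Cd70, the ligand of CD27, was at 123, 53.8 and 24.5 CPM in members against 20.2, 7.92 and 0 CPM in the other cells (log2 fold change 2.85 ± 0.48 SE, edgeR adjusted p = 0.0228). Its UMIs lay in 6, 9 and 2 members. Its receptor Cd27 went the other way, at 33.6, 36.8 and 30.7 CPM in members against 174, 113 and 159.9 CPM in the other cells (log2 fold change -1.99 ± 0.29 SE, edgeR adjusted p = 0.0103). Tnfrsf4 (OX40), a costimulatory receptor, was high in both groups and higher in members (1872, 2062 and 1491 CPM in members against 1259, 1418 and 966 CPM in the other cells, log2 fold change 0.62 ± 0.11 SE, edgeR adjusted p = 0.0276). Lta, which encodes lymphotoxin α, and Tnfsf9, the ligand of 4-1BB, were not called (1.67 ± 0.43 and 1.14 ± 0.45 SE, adjusted p = 0.102 and 0.344 by edgeR). Cd40lg, the signal of helper T cells to B cells and dendritic cells, was at 78.5, 82.0 and 49.1 CPM in members against 60.7, 47.5 and 34.8 CPM in the other cells and was not called. Ltb, Fasl and Tnf were not called either. Of 15 TNF ligands 7 could be tested and 1 rose, and of 20 TNF receptors 9 could be tested, 1 rose (Tnfrsf4) and 1 fell (Cd27). Tnfrsf9 (4-1BB), Tnfrsf18 (GITR), Tnfrsf1b and Fas were not called, with log2 fold changes of -0.35, 0.03, -0.62 and 0.51.

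Gzmb, Gzmk, Ccl5 and Klrg1, genes of effector T cells, fell in members. Gzmb was at 291, 122 and 313 CPM in members against 1032, 1358 and 2308 CPM in the other cells (log2 fold change -2.70 ± 0.25 SE, edgeR adjusted p = 0.000505), and 3, 10 and 2 members had a UMI of it. Ccl5, a chemokine of effector T cells, was at 61.6, 467 and 98.2 CPM in members against 1979.8, 1139 and 681 CPM in the other cells (log2 fold change -2.62 ± 0.45 SE, edgeR adjusted p = 0.0242). Gzmk had 0 UMIs in members and 70 in the other cells, at least 15.6-fold lower against a floor of 3 UMIs over all members. Klrg1, an inhibitory receptor of effector and regulatory T cells, was at 28.0, 14.1 and 55.2 CPM in members against 138, 79.2 and 372 CPM in the other cells (log2 fold change -2.51 ± 0.29 SE, edgeR adjusted p = 0.00192). The granzyme inhibitors Serpinb9 and Serpinb6b went up instead (0.85 ± 0.18 and 1.01 ± 0.22 SE). Of 16 tested cytotoxic genes 2 rose, 2 fell and 12 were not called. The list's median log2 fold change was 0.092, beside 0.0057 over all genes, and 9 of the 16 were above 0. Gzmd and Gzme were at 975 and 1732 CPM in WT members against 296 and 166 CPM in the other cells. In RARα-KO they were at 136 and 158 CPM in members against 428 and 347 CPM. Of the Gzme UMIs in WT members, 57.9% lay in 1 cell.

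Several genes that fell are also high in regulatory T cells. Cebpb, a transcription factor, was at 84.1, 84.9 and 166 CPM in members against 489.9, 267 and 761 CPM in the other cells (log2 fold change -2.06 ± 0.22 SE, edgeR adjusted p = 0.00115), and Foxp3+ CD4 T cells had 681, 647 and 1099 CPM. Glrx, a thiol reductase, was at 44.8, 153 and 141 CPM in members against 478, 343 and 629 CPM in the other cells. Foxp3+ CD4 T cells had 2974, 3981 and 4536 CPM of Gzmb and 397, 473 and 714 CPM of Klrg1. Ikzf2, which encodes Helios, and Ctla4 were lower in members (-1.48 ± 0.28 and -1.04 ± 0.20 SE). For 20 of the 38 genes that were lower, the level in Foxp3+ CD4 T cells was above that of the other cells in all 3 tumors, and for 4 of the 27 that were higher. The share of all genes tested with this pattern is not given, so whether these counts are unusual cannot be told. The 6 regulatory markers summed to 605 to 724 CPM in members, 887 to 1661 CPM in the other cells and 3332 to 4129 CPM in Foxp3+ cells. A regulatory T cell without a captured Foxp3 UMI falls into the other cells by the rule, and the part of such cells in these differences was not tested directly. Among cells with 3000 or more UMIs, 59 of the 65 calls held, and without clonotypes that hold a Foxp3+ cell 52 held, while Ikzf2 was lost under both.

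Interferon-stimulated genes lay below 0 as a list, with few calls. All 17 tested genes had a negative log2 fold change, 11 had an unadjusted p under 0.05, and 1, Gbp4, a guanylate-binding protein, was called (-1.68 ± 0.32 SE, adjusted p = 0.0302 by edgeR). The list's median was -0.72, beside 0.0057 over all genes, and ran from -1.04 to -0.47 over the alternatives. Rtp4 had 4, 11 and 0 UMIs in members against 20, 48 and 15 in the other cells and was not called.

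Among the remaining genes with large changes, Plscr1, a phospholipid scramblase that interferon induces, was at 302.6, 238 and 190.2 CPM in members against 109, 73.3 and 27.8 CPM in the other cells (log2 fold change 1.86 ± 0.25 SE, edgeR adjusted p = 0.00736). Dusp14, a phosphatase that limits T cell receptor signals, was at 252, 169.8 and 295 CPM in members against 109, 69.3 and 34.8 CPM in the other cells, and Marcksl1, an actin-binding protein, at 229.8, 167 and 117 CPM in members against 56.7, 37.6 and 69.5 CPM in the other cells. Igfbp7, a secreted binding protein, was at 202, 99.0 and 644 CPM in members against 52.6, 53.5 and 34.8 CPM in the other cells, and Ccdc184 at 224, 102 and 92.0 CPM in members against 48.6, 33.7 and 13.9 CPM in the other cells. Ntrk3, which encodes the neurotrophin receptor TrkC, had 38 UMIs in members and 7 in the other cells. Rln3, which encodes relaxin 3, was lower (-3.06 ± 0.55 SE). Spp1, which encodes osteopontin, had 8 UMIs in members and 138 in the other cells, of which 127 were in RARα-KO. Tyrobp, Il1b, H2-Aa and H2-Eb1, genes of myeloid and antigen-presenting cells, were called as lower. These 4 genes were under the filter on low counts without the cells with 5 or more myeloid UMIs, 2 of which were WT cells of the comparison group, and were not called without the WT tumor. Of the cell cycle list, 1 of 19 tested genes fell (Cenpa) and none rose. Inhibitory receptors gave 1 call of 9, Ctla4, and cytokine receptors, glycolysis and growth genes and immediate early genes gave none of 19, 18 and 24.

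Cytokine RNA was concentrated in a few members. Csf2, which encodes GM-CSF, had 94, 61 and 34 UMIs in members, in 7, 8 and 5 cells, and 69, 10 and 7 in the other cells (log2 fold change 1.98 ± 0.36 SE, edgeR adjusted p = 0.0281). Without the top cell of each population it stood at 292.7, 122 and 128 CPM in members and 109.8, 9.99 and 0 CPM in the other cells, so it was higher in members of each tumor with and without those cells. Ccl1, a chemokine that binds Ccr8, had 351, 8 and 99 UMIs in members, but 300 of the 351 lay in 1 WT cell, and RARα-KO was below the other cells (log2 fold change 4.88 ± 0.86 SE, edgeR adjusted p = 0.0242). The Ccl1 UMIs of the other cells of RARα-KO all lay in 1 cell. Without the top cell of each population Ccl1 stood at 310, 5.76 and 462 CPM in members and 4.15, 0 and 0 CPM in the other cells. In RARα-KO members 2 UMIs were left. Il13, a type 2 cytokine, had 2, 0 and 82 UMIs, with 55 of the 82 in 1 of 5 RARα-TG cells (log2 fold change 5.92 ± 0.57 SE, edgeR adjusted p = 0.000954), and the other cells held 2 UMIs in all. Of 25 helper cytokines and chemokines 12 could be tested, 3 rose (Il13, Ccl1 and Csf2), 1 fell (Ccl5) and 8 were not called.

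**Figure D3:**
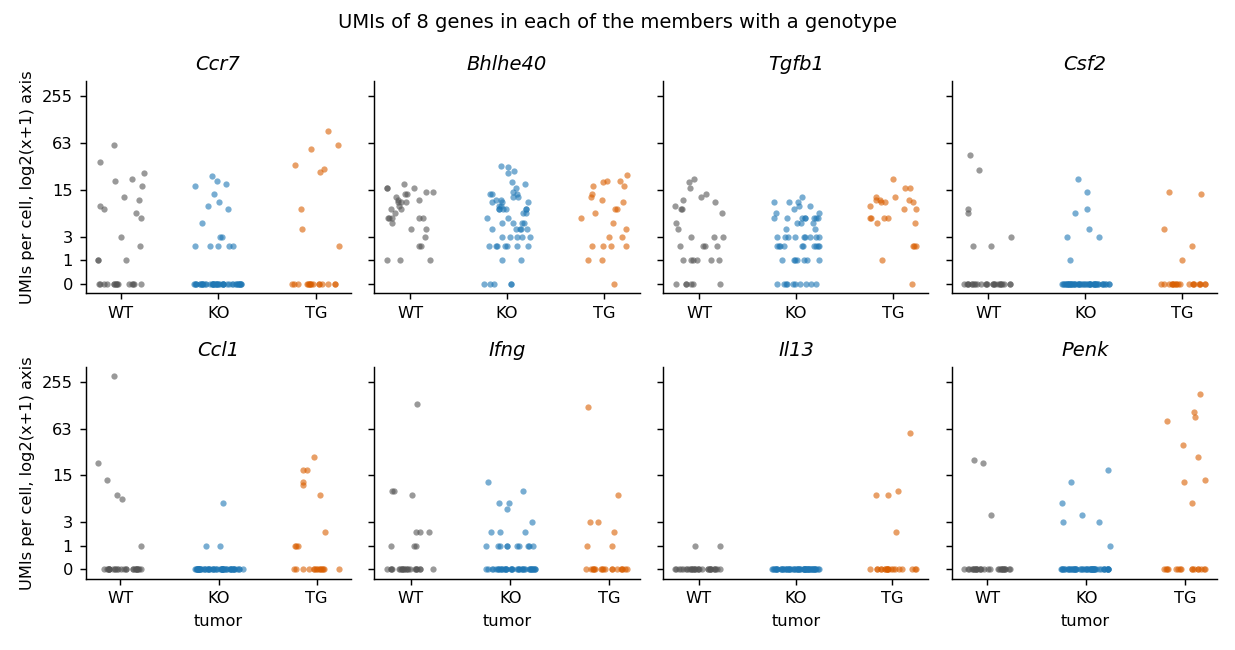
UMIs per cell (log2(x+1) axis) of Ccr7, Bhlhe40, Tgfb1, Csf2, Ccl1, Ifng, Il13 and Penk in the 32 WT, 58 RARα-KO and 25 RARα-TG members (KO and TG on the horizontal axis), 1 point per cell. Bhlhe40 and Tgfb1 spread over most cells, whereas single cells stand far above the rest for Ccl1 in WT (300 UMIs) and Ifng in WT and RARα-TG (130 and 119 UMIs).

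Ifng, the cytokine of type 1 helpers, was at 925, 161 and 841 CPM in members against 312, 218 and 13.9 CPM in the other cells. It was not called (edgeR adjusted p = 0.311). In members, 130 of 165 UMIs in WT and 119 of 137 in RARα-TG were in 1 cell each. Without the top cell of each population Ifng stood at 205, 130 and 117 CPM in members and 71.8, 117 and 10.6 CPM in the other cells. Tbx21, the factor of type 1 helpers, was at 106, 102 and 49.1 CPM in members against 64.8, 85.1 and 31.3 CPM in the other cells, and Gata3, that of type 2 helpers, at 112, 96.2 and 61.4 CPM in members against 52.6, 87.1 and 104 CPM in the other cells. Neither was called. Il17a was found in RARα-TG alone, with 5 UMIs in 3 members and 7 in 3 other cells. Il4 had 5 UMIs, all in 1 RARα-TG member. Il5 had 9 UMIs in 4 RARα-TG members and 1 in RARα-KO. Il21 had 5 UMIs, Il10 3 and Il2 3 in all members. Bcl6, the factor of follicular helpers, was at 101, 39.6 and 49.1 CPM in members, and Cxcr5, their homing receptor, had 0 UMIs. Of 16 tested genes of the type 1 list 1 rose (Bhlhe40), and none of 7 type 2, 5 type 17 and 7 follicular genes was called. Tgfb1, by contrast, had a UMI in 98 of 115 members and was at 930.3, 586 and 1264 CPM in members against 534, 469 and 775 CPM in the other cells; it missed the threshold (edgeR adjusted p = 0.0772).

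Members with and without Tnfsf8 differed in other genes. These genes were picked after their values were seen, and no test was made. Members with a Tnfsf8 UMI numbered 24, 33 and 16, and those without one 8, 25 and 9. Ccr7 was at 1845, 525 and 2467 CPM with a Tnfsf8 UMI against 152, 192 and 602 CPM without one. In WT and RARα-TG the Ccr7 UMIs of members without Tnfsf8 were in 1 cell each. Tcf7, a factor of naive and memory T cells, was at 127, 117 and 109 CPM with a Tnfsf8 UMI against 19.0, 35.6 and 0 CPM without one, and Tnfrsf25 at 127, 136 and 182 CPM with a Tnfsf8 UMI against 0, 28.5 and 113 CPM without one. Members without Tnfsf8, which hold Tnfsf11 alone, had more Nkg7, a gene of cytotoxic granules, at 406, 605 and 428 CPM with a Tnfsf8 UMI against 2753, 1489.9 and 1374 CPM without one. The same held for Ccl5, at 15.9, 197 and 81.9 CPM with a Tnfsf8 UMI against 171, 877 and 132 CPM without one, and for Ifng, at 39.8, 98.5 and 63.7 CPM with a Tnfsf8 UMI against 3038, 257 and 2447 CPM without one. For Ifng the 2 largest differences again rest on 1 cell each, and in RARα-KO 10 of 33 members with Tnfsf8 and 9 of 25 without it had an Ifng UMI. The Poisson intervals with and without a Tnfsf8 UMI overlapped for Tcf7 in each tumor and for Tnfrsf25 and Ccl5 in RARα-TG. Bhlhe40, Gata3, Csf2, Ccl1, Serpinb1a, Bace2, Ltb, Cd40lg and Cd70 had no common direction over the tumors.

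**Figure D4:**
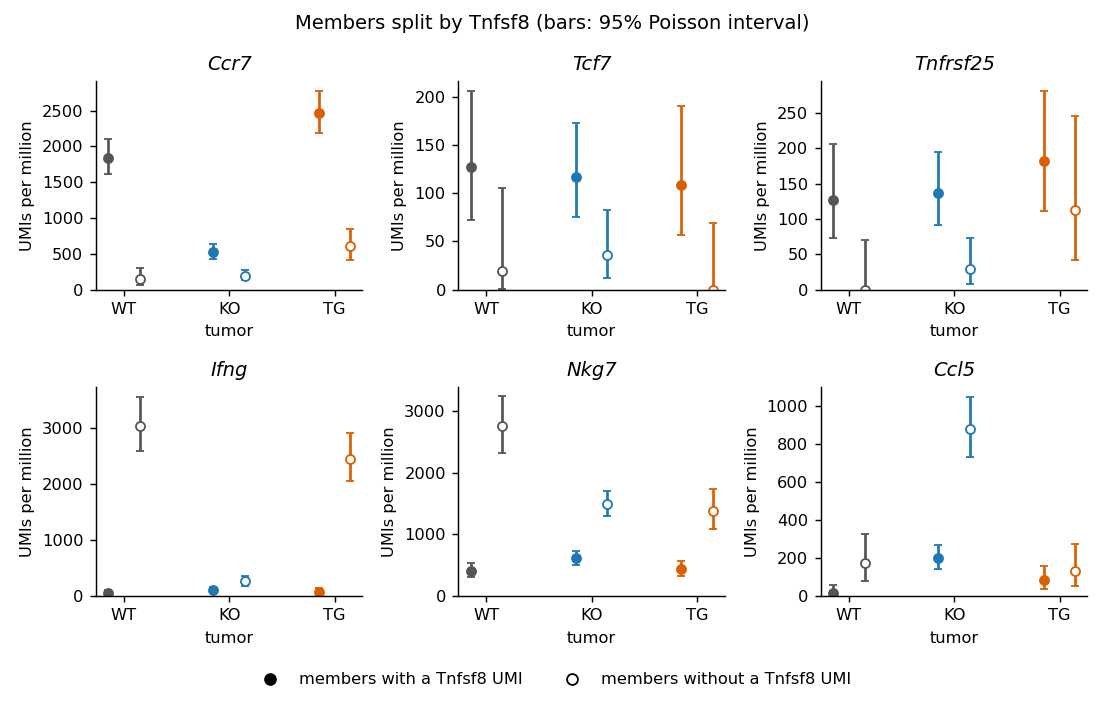
CPM (linear axes from 0) of 6 genes in members with a Tnfsf8 UMI (filled) and without one (open) for the WT, RARα-KO and RARα-TG tumors (KO and TG on the horizontal axis); bars are exact Poisson 95% intervals, which cover counting error only. Ccr7, Tcf7 and Tnfrsf25 are higher with Tnfsf8 in each tumor, and Ifng, Nkg7 and Ccl5 higher without it. The bars overlap for Tcf7 in each tumor and for Tnfrsf25 and Ccl5 in RARα-TG.

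Members made up 36.4% (26.4% to 47.3%), 36.9% (29.4% to 45.0%) and 24.5% (16.5% to 34.02%) of the Foxp3- CD4 T cells, with Clopper-Pearson intervals in brackets (32 of 88, 58 of 157 and 25 of 102 cells). The intervals overlap. After each cell was thinned to 1000 UMIs and the rule applied again, the shares were 9.68% (3.63% to 19.9%), 7.69% (3.15% to 15.2%) and 7.35% (2.43% to 16.3%), from 6 of 62, 7 of 91 and 5 of 68 cells, with no cell too shallow to be thinned. Thinning also took away Cd4 and Foxp3 UMIs, so the denominator changed. A cell left without a Cd4 UMI no longer counts as a CD4 T cell, and one left without a Foxp3 UMI counts as Foxp3-. Foxp3- cells were 62 of 80, 91 of 105 and 68 of 91 CD4 T cells after thinning. Before it they were 88 of 195, 157 of 241 and 102 of 245. With so few members left, the thinned shares cannot show whether the genotypes have an order. Without thinning and with Foxp3+ cells included, members made up 16.4% (11.5% to 22.4%), 24.1% (18.8% to 30.0%) and 10.2% (6.71% to 14.7%) of all CD4 T cells. Here the RARα-KO and RARα-TG intervals did not overlap, and the Foxp3+ cells in the denominator numbered 107, 84 and 143. Thinning left 7.50% (2.80% to 15.6%), 6.67% (2.72% to 13.3%) and 5.49% (1.81% to 12.4%), with overlapping intervals. T cells and total cells were taken in fixed numbers per genotype.

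Rara itself followed the transgene in members. It was at 78.5, 36.8 and 233 CPM in members (14, 13 and 38 UMIs), and RARα-TG lay above WT (log2 ratio 1.57, 95% interval 0.65 to 2.57). RARα-KO members were not distinguished from WT (-1.09, -2.30 to 0.10). The other cells had 76.9, 59.4 and 247 CPM. Crabp2, a retinoic acid binding protein, was the 1 gene of the retinoic acid list called between members and other cells (log2 fold change 3.03 ± 0.58 SE, edgeR adjusted p = 0.029), with 43 of its 47 member UMIs in RARα-TG and 25 of these in 1 cell.

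Between genotypes, the counts of members allow a description only. For RARα-KO against WT, 3807 genes had 20 or more UMIs, and 10.3% of them lay past 2-fold in either direction (227 higher, 164 lower). For RARα-TG against WT it was 11.6% of 2722 genes (149 higher, 167 lower). Both ratios share the WT members. Rpl29, a ribosomal protein gene, was at 3116 CPM in WT and 353.7 CPM in RARα-KO members (log2 ratio -3.14, 95% interval -3.43 to -2.86), and the other cells had a log2 ratio of -2.81 (-3.07 to -2.56). Gm42031 was counted 88 times in 27 RARα-KO members and had 0 UMIs in WT members, and the other cells had 0 and 65. Tmed3, a protein of vesicle transport, was at 11.2 CPM in WT and 79.2 CPM in RARα-KO members (log2 ratio 2.82, 95% interval 0.83 to 5.94), while the other cells had -0.64 (-1.77 to 0.52). Glcci1 (23 UMIs in 22 RARα-KO members, 1 in WT), Lrrc58 (20 and 1) and Eif4ebp1 (27 and 1, of which 51.9% in 1 cell) were also higher in RARα-KO members, but the log2 ratio turned to -0.12 for Glcci1 with cells thinned to 1000 UMIs and to -0.052 for Eif4ebp1 with 1 cell per clonotype. Ccl5 was at 61.6 CPM in WT and 467 CPM in RARα-KO members (log2 ratio 2.92, 95% interval 2.04 to 3.95), in 14 of 58 and 3 of 32 cells, whereas in the other cells RARα-KO was lower (-0.80, -0.97 to -0.62).

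Lower in RARα-KO than in WT members were Ccl1, Cd83, Ccl22, Gzme, Gpm6b and Rpl29. All 26 Ccl22 UMIs and 85.5% of the Ccl1 UMIs of WT lay in 1 cell each, as did 60% of the Cd83 and 57.9% of the Gzme UMIs. In the other cells Gzme was higher in RARα-KO (1.06, 0.56 to 1.59). Gpm6b, a membrane protein, had 25 UMIs over 12 WT members and 5 over 4 RARα-KO members (-3.31, -5.05 to -1.90). Of 10 measured helper cytokines 1 was past 2-fold higher in RARα-KO and 7 past 2-fold lower, beside 10.3% of all genes in either direction, and the large values of single cells enter these sums. Ccr7 was at 1345 CPM in WT and 393 CPM in RARα-KO members (log2 ratio -1.77, 95% interval -2.09 to -1.47), and the other cells went the same way (-0.63, -1.22 to -0.019). Ltb was higher in RARα-KO members, at 661 CPM in WT and 939 CPM in RARα-KO members (log2 ratio 0.51, 95% interval 0.20 to 0.82). The other cells had a similar Ltb ratio of RARα-KO to WT (0.47, 0.21 to 0.73). In RARα-TG members Ltb was lower than in WT members, at 295 CPM (-1.17, -1.68 to -0.67).

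Penk, Ramp1, Perp, Il13, Crabp2 and Bmyc had the largest ratios in RARα-TG members. Penk, which encodes proenkephalin, was at 280.2 CPM in WT and 3375 CPM in RARα-TG members (log2 ratio 3.59, 95% interval 3.17 to 4.04), in 9 of 25 and 3 of 32 cells, while in the other cells RARα-TG was lower than WT (-2.50, -3.07 to -1.97). Of the 170 Penk UMIs in the other cells of WT, 149 lay in 1 cell, and without the top cell of each population the other cells stood at 89.4 CPM in WT and 53.0 CPM in RARα-TG. Ramp1, a part of the receptor for the neuropeptide CGRP, was at 16.8 CPM in WT and 319 CPM in RARα-TG members (log2 ratio 4.25, 95% interval 2.62 to 6.57), in 15 of 25 RARα-TG and 3 of 32 WT members, and the other cells went the same way (2.67, 1.53 to 4.06). Perp, a membrane protein, had 39 UMIs in 10 RARα-TG members and 3 in WT. Il13, Crabp2 and Bmyc were higher as well, each with 58.1% or more of the RARα-TG UMIs in 1 cell. Cytotoxic genes were lower: Gzmd was at 975 CPM in WT and 6.14 CPM in RARα-TG members (log2 ratio -7.31, 95% interval -12.62 to -4.81) and Gzme at 1732 CPM in WT and 49.1 CPM in RARα-TG members (log2 ratio -5.14, 95% interval -6.37 to -4.14), in 7 and 6 WT members. Klrk1, the activating receptor NKG2D, was at 235 CPM in WT and 18.4 CPM in RARα-TG members (log2 ratio -3.68, 95% interval -6.01 to -2.03), in 16 of 32 WT and 3 of 25 RARα-TG members. Tbc1d4, a regulator of glucose transporter traffic, was at 191 CPM in WT and 18.4 CPM in RARα-TG members (log2 ratio -3.37, 95% interval -5.72 to -1.70), while the other cells had 0.19 (-0.98 to 1.41). Serpinb9b and Plk2 had 43 and 34 UMIs in WT members and 0 in RARα-TG. Of 14 measured cytotoxic genes 6 were past 2-fold lower in RARα-TG members and none higher, beside 11.6% of all genes. Of 11 helper cytokines 3 were past 2-fold higher and 5 lower, of 12 type 1 genes 5 lower, and of 7 interferon-stimulated genes 4 lower.

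Members belonged to 79 clonotypes, which are groups of cells with the same TCR, counted within a tumor. Of 115 members, 50 (43.5%, Clopper-Pearson interval 34.3% to 53.0%) were the single cell of their clonotype, and 49 (42.6%, 33.4% to 52.2%) shared it with another member. As many, 49, shared it with at least 1 of the other Foxp3- CD4 T cells. By contrast 2 of 115 members (1.74%, 0.211% to 6.14%), both RARα-TG, shared a clonotype with a Foxp3+ cell, and none did with a CD8 T cell, which allows a share of up to 3.16% by the same interval. Of 35 clonotypes with 2 or more Foxp3- CD4 T cells, 3 held members alone, 11 no member and 21 both. In all, 48 of 115 members (41.7%, 32.6% to 51.3%) and 65 of 232 other cells (28.0%, 22.3% to 34.3%) were in clonotypes of 5 or more cells. By tumor these were 12 of 32, 26 of 58 and 10 of 25 members and 10 of 56, 46 of 99 and 9 of 77 other cells. The intervals overlapped in WT and RARα-KO and missed each other narrowly in RARα-TG (21.1% to 61.3% against 5.49% to 21.0%). They treat cells as separate draws, which cells of 1 clonotype are not. Of the 10 RARα-TG members, 2 clonotypes gave 4 each, so no difference is read from the RARα-TG intervals.

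A set of 9 clonotypes held 3 or more members, and they show how cells with 1 TCR divided between members and other cells. The largest, in the WT tumor, held 7 members and 7 other cells, and the second, in RARα-KO, 6 members and 5 other cells. The third held 5 RARα-KO members and no other cell. Of the 87 cells in all these clonotypes, 41 were members, 34 other Foxp3- CD4 T cells, none Foxp3+ and none CD8. The CDR3 is the stretch of the receptor that contacts the peptide, and its nucleotide sequences, read from the deposited contigs, are given for the first 3 to identify them. Capitals mark the first and the last codon of the CDR3.
Clonotype 1, WT, TRAV19 and TRAJ57: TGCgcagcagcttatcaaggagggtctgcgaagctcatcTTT
Clonotype 1, WT, TRBV12-2 and TRBJ2-3: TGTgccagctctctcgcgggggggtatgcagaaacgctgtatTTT
Clonotype 2, RARα-KO, TRAV9D-2 and TRAJ13: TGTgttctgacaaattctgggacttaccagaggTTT
Clonotype 2, RARα-KO, TRBV3 and TRBJ2-3: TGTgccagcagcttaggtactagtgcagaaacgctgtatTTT
Clonotype 3, RARα-KO, TRAV10 and TRAJ17, 1 of its 2 α chains: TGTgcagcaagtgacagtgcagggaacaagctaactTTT
Clonotype 3, RARα-KO, TRBV3 and TRBJ2-3: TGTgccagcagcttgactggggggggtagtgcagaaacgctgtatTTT

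**Figure D5:**
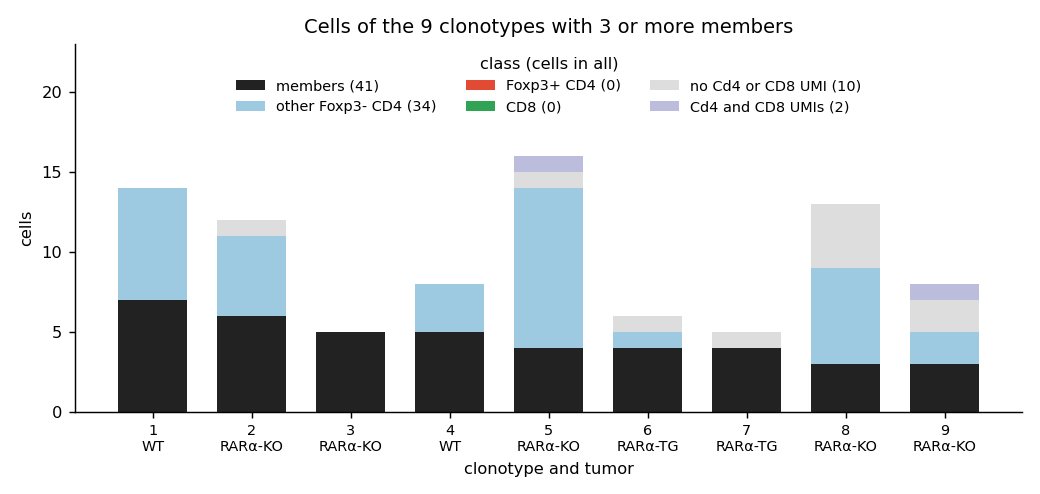
Number of cells (vertical axis, from 0) in each of the 9 clonotypes with 3 or more members, numbered by their members, with the tumor below; colors split each bar by the class of its cells. Black (members, 41 cells) and light blue (other Foxp3- CD4 T cells, 34 cells) make up most of each bar, and neither Foxp3+ CD4 nor CD8 T cells appear.

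Clonotypes of different tumors shared gene segments. Clonotype 6 of the RARα-TG tumor (4 members) and clonotype 9 of the RARα-KO tumor (3 members) both joined TRAV6N-7 with TRBV20 and TRBJ1-3, and their β chain CDR3s were of equal length. The 2 sequences differed at 6 of 45 bases, which are in capitals.
Clonotype 6, RARα-TG: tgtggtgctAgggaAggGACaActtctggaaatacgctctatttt
Clonotype 9, RARα-KO: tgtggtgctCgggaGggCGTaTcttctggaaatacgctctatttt
This choice of segments was seen in 2 of 72 member clonotypes with both chains, 3 of 137 clonotypes of the other cells, 1 of 213 of Foxp3+ cells and 1 of 423 of CD8 T cells. TRAV19 with TRAJ57, the α chain segments of clonotype 1 in WT and clonotype 7 in RARα-TG, was in 4 of 72, 4 of 137, 6 of 213 and 2 of 423. TRBV3 was the most frequent β segment of members, in 20 of 79 clonotypes (25.3%, 16.2% to 36.4%), against 24 of 160 (15%, 9.85% to 21.5%) in the other cells. By tumor it was in 3 of 21, 10 of 40 and 7 of 18 member clonotypes and in 7 of 41, 8 of 59 and 9 of 60 of the other cells, and the intervals overlapped in each tumor.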

How the data were processed

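Tumor cells of 3 genotypes, per genotype 30000 sorted T cells (CD45.2+, CD3+) with 10000 unselected cells added, were pooled in 1 droplet library with gene, TCR and hashtag reads. The authors deposited UMI counts of 32285 genes for 730308 barcodes, hashtag UMI counts and assembled TCR contigs, made per the labels with Cell Ranger 6.1.0 on mm10 (GRCm38). Starting from these counts (46394322 gene UMIs), barcodes with 500 or more UMIs were kept, with no mitochondrial filter. A genotype was given where the top hashtag had 10 or more UMIs and 3 times the next, which removes doublets between genotypes; no doublet caller was run, and 4 of 121 members had 2 productive β chains.

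Counts were summed per tumor and population and tested with edgeR 4.0.16 (TMM, quasi-likelihood, Benjamini-Hochberg, R 4.3.3) with the tumor as a term, on genes with a mean over 0.1 UMIs per cell. The p-values measure only the spread between the 3 genotypes of 1 pooled library. Each SE was worked back from the test, as the absolute log2 fold change over the square root of its F statistic. DESeq2 1.42.0 was an alternative. Genotype ratios carry exact binomial, levels exact Poisson and shares Clopper-Pearson intervals at 95%, with a floor of 3 UMIs where a count was 0. The scripts were tested on simulated data. Other steps ran in Python 3.11.15 with scipy 1.17.1, and figures were drawn with matplotlib 3.10.9.

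The members and all gene lists were chosen with earlier results of these data known. Named genes were the members of the TNF and cytokine lists with 10 or more UMIs, the 12 called genes with the largest fold in each direction that moved the same way in 3 tumors, up to 4 genes with the lowest p of each other list together with defining helper genes, the 6 largest ratios in each direction per genotype, and Rara and the gate genes; others are said to be picked after their values were seen. Results on some genes are not reported here.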

Additional observations from a re-analysis of the deposited data

Results flagged for a closer look

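For 2 genes, the sums of members and of the other Foxp3- CD4 T cells differed in opposite directions in different tumors, and few cells held the UMIs. The differences between the tumors were not tested, since each genotype was 1 sample, and the intervals cover counting error only. Areg, which encodes the growth factor amphiregulin, was higher in members of the RARα-TG tumor (log2 ratio 0.89, 95% interval 0.59 to 1.18, 200 and 191 UMIs) and lower in members of the WT tumor (-0.94, -1.36 to -0.54, 71 and 189 UMIs). Without the top cell of each population Areg stood at 205, 110.1 and 771 CPM in members and 465, 132 and 539 CPM in the other cells of WT, RARα-KO and RARα-TG. Penk was higher in members in RARα-TG (4.79, 4.30 to 5.33, 550 and 35 UMIs) and in RARα-KO (0.94, 0.28 to 1.61, 47 and 35 UMIs) and lower in WT (-1.30, -1.78 to -0.83, 50 and 170 UMIs). For Penk the opposite direction in WT rests on 1 of the other cells, which held 149 of the 170 UMIs. Without the top cell of each population Penk was higher in members in each tumor, at 152, 83.8 and 2404 CPM against 89.4, 38.1 and 53.0 CPM. This setting was chosen after seeing the data.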

How the results depend on the processing

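The counts of 27 higher and 38 lower genes moved most with the design. Without the tumor as a replicate block there were 0 and 0 calls, with no filter on low counts 72 and 155, with cells thinned to 1000 UMIs 10 and 9, and with DESeq2 10 and 15. Leaving out 1 tumor gave 3 to 64 higher and 4 to 83 lower genes, the lowest without RARα-TG and the highest without RARα-KO. Other alternatives stayed within 1.5 times, among them 3 chosen after seeing the data: without cells with 5 or more myeloid UMIs, cells with 3000 or more UMIs, and without clonotypes of Foxp3+ cells. All called genes that could be tested kept their direction under every alternative except 2 without WT, of which H2-Aa ran from -5.57 without RARα-KO to 0.65 without WT. The share of members was 56.8%, 56.7% and 36.3% (WT, RARα-KO, RARα-TG) with 1 or more ligand UMIs, 26.8% in RARα-KO with 3 or more, and 9.68%, 7.69% and 7.35% after thinning. After thinning, 67 genes lay past 2-fold in RARα-KO and 46 in RARα-TG members. Eif4ebp1 in RARα-KO turned to -0.052 with 1 cell per clonotype and Glcci1 to -0.12 after thinning. The causes were not tested. Depth and 1 sample per genotype limit what can be seen of low genes.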
